A study of Drosophila melanogaster with 18 samples.

Results

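Among 16637 transcripts measured in Drosophila Kc cells, 65 (0.391%) had a higher signal after every insulator protein knockdown than in control cells. The transcripts were selected on their array signals. A transcript was taken when the lowest of its 16 knockdown arrays lay at least 0.4 on the log2 scale (1.32-fold) above the higher of the 2 control arrays. Its mean over the 12 arrays of CTCF, SuHw and the 4 double knockdowns also had to lie within 1 log2 unit of its mean over the 4 BEAF and CP190 arrays. The choice thus used all 18 arrays, and the rise over control is given below as a description with no test. The study depleted insulator proteins in Kc cells, an established line of embryonic origin, with double-stranded RNA added daily for 3 days, and collected the cells on day 4. The 8 knockdown groups were BEAF, CP190, CTCF and SuHw alone, CP190 together with BEAF, CTCF or SuHw, and BEAF together with CTCF, written below with a plus sign. The control group, labelled wild type, received double-stranded RNA against beta-galactosidase, so every group had been given double-stranded RNA. Each of the 9 groups had 2 arrays from independent experiments, hybridised with Cy3-labelled cDNA on NimbleGen expression arrays, and values are log2 signals.

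Insulators are DNA elements that limit how enhancers and chromatin states act on neighbouring genes and that help to set contacts between distant sites. In Drosophila, BEAF, CTCF and Su(Hw) each bind their own DNA sequences, and many of their sites lie near promoters, most of all those of BEAF. CP190 is recruited to sites of each of them as a shared cofactor. A knockdown of 1 protein can therefore reach sites that others also use, and the transcripts that were higher whatever protein was depleted are described here across all 9 groups.

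None of the 65 identifiers could be paired with a gene. The gene table given with the data names 16 of the 16637 transcripts by 1 symbol and 28 by several, and none of them is among the 65. The nearest named gene was kis, which encodes a chromatin remodeller. Its lowest knockdown array lay 0.30 above its higher control array, short of the 0.4 required. Transcripts therefore appear by their FlyBase identifiers, and no function or position is given for them. For the same reason the levels of the 4 depleted genes and of markers of Kc cells were not analysed here, and no sequence is shown. Array medians ran from 9.27 to 9.33, and single values from 2.75 to 15.77.

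The arrays fall into a first set (control, BEAF and CP190, 6 arrays) and a second set (CTCF, SuHw and the 4 doubles, 12 arrays), told apart by how the labels spell the cell line. Across transcripts, replicate arrays had correlations of 0.998 to 0.999. Pairs from different groups of 1 set had 0.9924 to 0.9977 in the first set and 0.9895 to 0.9982 in the second. Pairs with an array from each set had 0.9777 to 0.9897, a range that slightly overlaps that of the second set. Control lies in the first set, so for CTCF, SuHw and the doubles a comparison with control holds both a knockdown and a change of set, which cannot be told apart. In BEAF and CP190 arrays, which share the control's set, the 65 were also higher than in control, which the choice required.

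**Figure D1:**
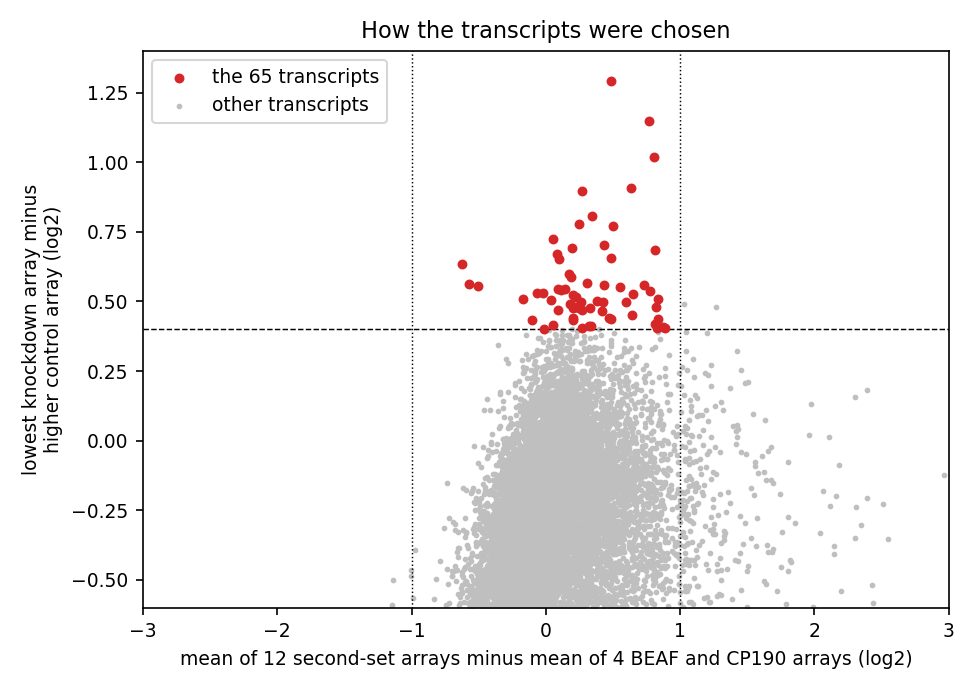
For every transcript, the vertical axis gives its lowest knockdown array minus its higher control array and the horizontal axis its mean over 12 second-set arrays minus its mean over the 4 BEAF and CP190 arrays, both in log2. Red points are the 65 transcripts chosen, above the dashed line at 0.4 and between the dotted lines at -1 and 1; grey points are the others, of which those below -0.6 or beyond 3 log2 units are not drawn. Of the transcripts above the dashed line, 2 lie to the right of the upper dotted line and none to the left of the lower one.

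The limit of 0.4 cut through a continuous range. FBtr0084493, FBtr0072899 and FBtr0080636 lay just inside, with gaps of 0.402, 0.403 and 0.405. FBtr0070588, FBtr0078116 and FBtr0083134 lay just outside at 0.3998, 0.3996 and 0.3992. At the second limit, FBtr0112390 was the nearest inside, with a second-set mean 0.89 above its BEAF and CP190 mean. FBtr0077689 at 1.03 and FBtr0078555 at 1.27 passed the gap and were left out by that limit. The opposite choice, with every knockdown array at least 0.4 below both control arrays and the same limit between sets, held 351 transcripts (2.11%).

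Replicate arrays of BEAF differed more in these 65 transcripts than elsewhere. BEAF replicate 1 was higher than BEAF replicate 2 in 64 of the 65, by a median of 0.26, while over all transcripts it was higher in 50.6%. The root mean square SD between BEAF replicates was 0.237 over the 65 and 0.110 over all transcripts. The median rise was 0.96 in BEAF replicate 1 and 0.66 in BEAF replicate 2, beside 0.70 and 0.66 in the CP190 arrays. In the 351 transcripts of the opposite choice BEAF replicate 1 was lower than replicate 2 in 317, by a median of 0.20 (-0.1997 as replicate 1 minus 2). Replicates of the other knockdowns lay closer together, with medians over the 65 of 0.054 in CP190 to -0.12 in SuHw for replicate 1 minus replicate 2. Some were still one-sided, with replicate 2 higher in 52 of the 65 in BEAF+CP190, 49 in CTCF+CP190 and 46 in SuHw. Over all transcripts replicate 1 was higher in 42.7%, 47.2% and 45.8% in these groups. In the remaining knockdowns replicate 2 was higher in 23 (CP190) to 36 (BEAF+CTCF) of the 65. BEAF replicate 2 was the lowest of the 16 knockdown arrays for 20 transcripts, CP190 replicate 2 for 21 and CP190 replicate 1 for 10. First-set arrays thus set the gap for 51 of the 65, with no share over all transcripts counted. The 2 control arrays differed little, by a median of 0.074 in the 65 and 0.066 in all transcripts.

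Averaged over the 8 knockdown groups, the 65 lay a median of 1.04 log2 units above control, a 2.06-fold higher signal, with a range from 1.58-fold to 4.55-fold. An average of 2-fold or more was reached by 37 of them. In 6 (FBtr0075697, FBtr0082648, FBtr0082542, FBtr0089859, FBtr0077951 and FBtr0080616) the mean of each of the 8 knockdown groups was at least 2-fold above control, and in 10 none was. The choice favours such rises, and shares over all transcripts are given below only for each group. The arrays measured bulk RNA, so more RNA per cell and a larger share of cells with the transcript cannot be told apart.

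In control cells most of the 65 had modest signals. The choice placed both control arrays below every knockdown array, so the control levels are a description that is not free of it. Their median control level was 7.93, against 9.299 for all transcripts, and 48 of the 65 lay below the median of all. Only 5 lay below the lower quartile of all control levels (5.50) and 3 above the upper quartile (11.75). Averaged over the knockdowns their median level was 9.27, beside 9.29 for all transcripts, with 33 of the 65 below the median of all. The lowest control level belonged to FBtr0070570, at 4.82, which reached 5.51 to 6.93 in the knockdown arrays, with a median of 6.16. The highest was that of FBtr0273437, at 12.61, with 13.08 to 13.67 in the knockdown arrays and a median of 13.49. The table carries no detection call, so how far the dimmest of these signals lie above background is unknown, and a fold in signal can understate a fold in RNA.

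**Figure D2:**
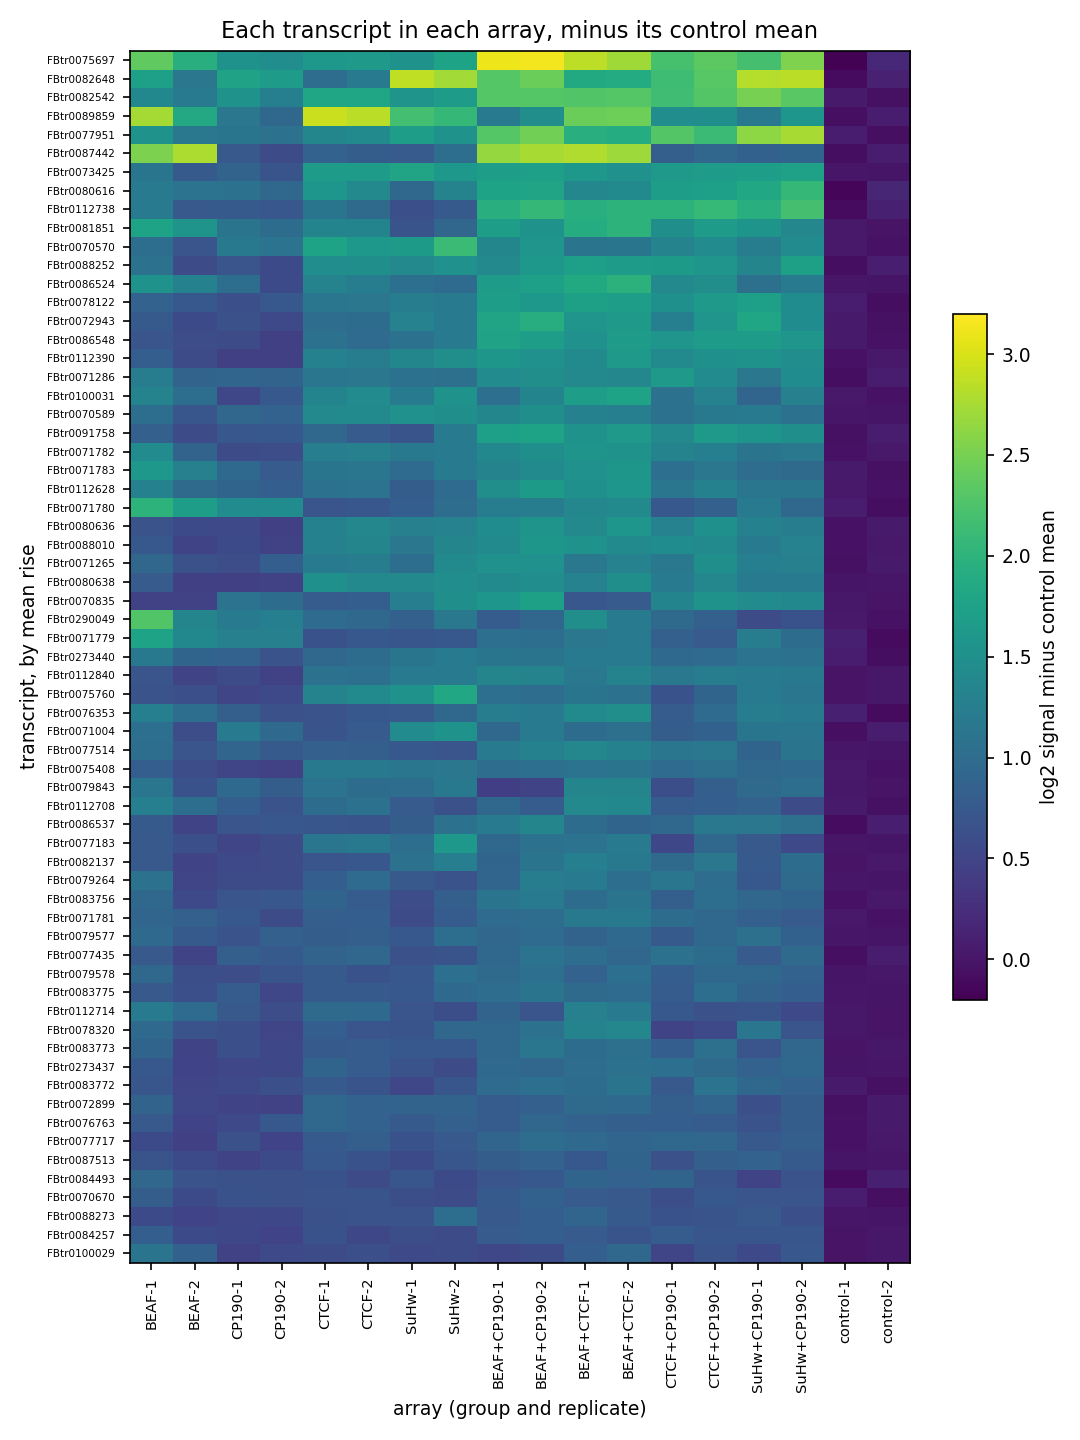
Each row is 1 of the 65 transcripts, ordered by its mean rise, and each column 1 of the 18 arrays; colour gives the log2 signal minus that transcript's control mean. All 16 knockdown columns are lighter than both control columns in every row, as the choice required, lighter being higher, and the second BEAF array is darker than the first in 64 of 65 rows.

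The size of the rise differed between the knockdowns. It was largest where BEAF was depleted together with another protein: the median over the 65 was 1.28 in BEAF+CTCF and 1.23 in BEAF+CP190 arrays. It was 1.10 in SuHw+CP190, 1.06 in CTCF+CP190, 1.01 in SuHw, 0.98 in CTCF, 0.81 in BEAF and 0.68 in CP190 arrays, while the median over all transcripts lay between 0.0059 and 0.039 in each of the 8. BEAF+CTCF held the highest of the 8 group means for 22 transcripts and BEAF+CP190 for 21. Together these 2 groups held the highest mean for 43 of the 65, and for 21.2% of all transcripts. CP190 alone held the lowest mean for 40 and BEAF alone for 10. These are the 2 knockdowns in the control's array set, and no share over all transcripts was counted for the lowest mean. Within the second set, all 4 arrays of the BEAF doubles lay above the other 8 arrays in 9 of the 65, and in 3.24% of all transcripts.

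At least 2-fold above control were 50 transcripts in BEAF+CTCF, 49 in BEAF+CP190, 36 in CTCF+CP190, 36 in SuHw+CP190, 33 in SuHw, 32 in CTCF, 21 in BEAF and 13 in CP190 arrays. Of all transcripts 3.21%, 3.62%, 2.76%, 3.24%, 3.85%, 2.85%, 0.264% and 0.204% were that much higher in these groups, in the same order. By limma with Benjamini-Hochberg adjustment, all 65 were called higher than control (adjusted p under 0.05) in each of the 8 comparisons. The shares of all transcripts called higher were 21.7% in BEAF, 15.5% in CP190, 29.1% in CTCF, 29.6% in SuHw, 30.0% in BEAF+CP190, 29.3% in BEAF+CTCF, 27.4% in CTCF+CP190 and 27.3% in SuHw+CP190. The choice fixed these calls, and nothing is read from them.

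**Figure D3:**
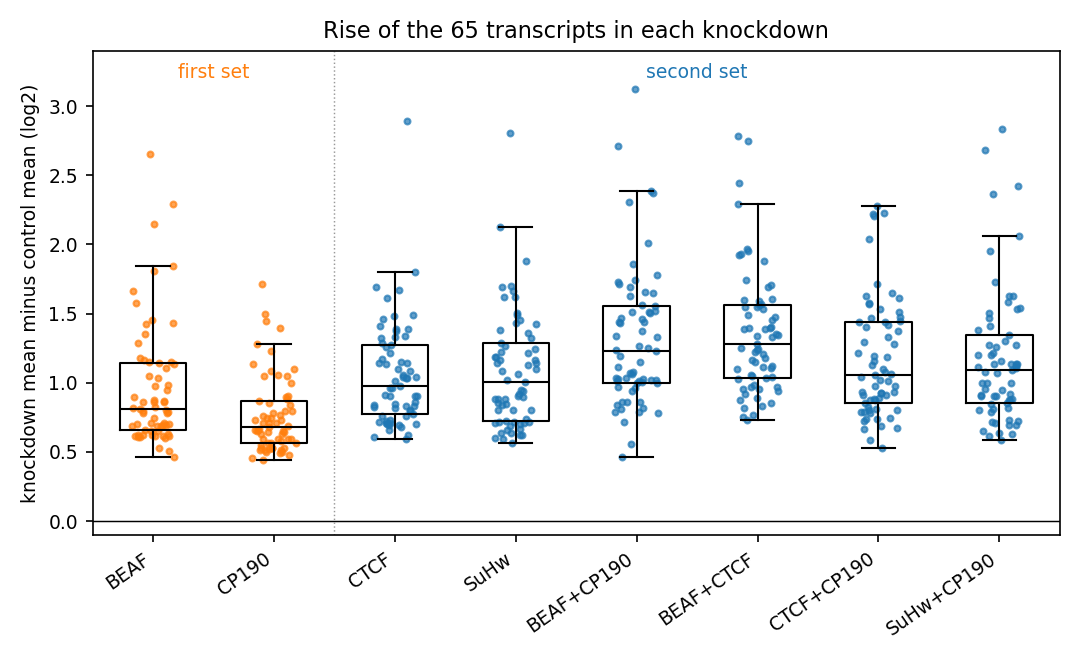
Points are the 65 transcripts in each knockdown, as group mean minus control mean in log2, with orange for groups of the first array set and blue for those of the second; boxes give quartiles and medians, and whiskers reach the farthest point within 1.5 times the box. The median is highest in BEAF+CTCF (1.28) and BEAF+CP190 (1.23) and lowest in CP190 (0.68), and every point lies above 0.

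In most of the 65 each double was above both of its singles. For BEAF+CTCF the median rise of 1.28 stood beside 0.81 for BEAF, 0.98 for CTCF and 1.94 for the sum of the singles' rises; 50 of the 65 were higher in the double than in both singles, against 27.5% of all transcripts. For BEAF+CP190 the sum of singles was 1.49, and 53 of 65 lay above both, against 42.9% of all. For CTCF+CP190 the sum was 1.70, and 42 lay above both, against 27.4%. For SuHw+CP190 it was 1.76, and 39 lay above both, against 25.4%. The double lay below the sum of the singles in 64 transcripts for BEAF+CTCF, 64 for SuHw+CP190, 63 for CTCF+CP190 and 52 for BEAF+CP190. The choice made both rises in every sum positive, which raises the sum. No share over all transcripts was counted for the sums, and nothing is read from these counts. All these rises are taken from the same 2 control arrays, which enter each rise in a sum, and at least 1 single of each pair lies in the first set. Both singles of BEAF+CP190 lie there, so the double above both also holds a change of set. They are given side by side with no test.

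The mean of the second-set arrays lay above that of the BEAF and CP190 arrays in 57 of the 65 and below it in 8. No share over all transcripts was counted for these means. The median difference between the sets, second minus first without control, was 0.27, with a range of -0.62 to 0.89 inside the limit of 1 that the choice set. Every second-set array lay above all 4 BEAF and CP190 arrays in 16 transcripts (24.6%), against 14.8% of all transcripts. The reverse held in 2 (3.08%), against 15.2% of all. The counts of means and these 2 shares are affected by the choice, since the set difference was part of it.

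When the choice was repeated with only replicate 1 of every group, it held 297 transcripts, of which 81 also showed the 0.4 gap in the replicate 2 arrays and 280 had every knockdown array above control there. With only replicate 2 it held 106, of which 78 showed the gap in the replicate 1 arrays and 105 had every knockdown array above control. Of all transcripts, 0.685% showed the gap in replicate 2 arrays and 1.92% in replicate 1 arrays. No such share was counted for the 280 and the 105. Control lies in the first set in either replicate, so these counts cannot tell a knockdown from a change of set.

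The knockdowns were then compared with each other in comparisons that use no control array. They were made within 1 array set, so that a constant difference between the sets does not enter. The fit used limma over all 18 arrays, with p-values adjusted over all 16637 transcripts. The choice of the 65 sets a floor under every knockdown array. It also holds the second-set mean within 1 log2 unit of the BEAF and CP190 mean, but does not otherwise involve these differences. With 2 arrays a group, a transcript that was not called may still differ.

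Adding BEAF knockdown to CTCF knockdown moved more of the 65 upward than any other pairwise comparison made. In BEAF+CTCF against CTCF, 25 rose (38.5%) and 2 fell (3.08%), where 11.9% of all transcripts rose and 10.0% fell. The median difference over the 65 was 0.26, and 0.00060 over all transcripts. FBtr0075697 had log2 signals of 8.61 and 8.46 in BEAF+CTCF arrays, against 7.36 and 7.37 in CTCF arrays. Both arrays of the double lay above both of the single, a 2.25-fold difference (log2 1.17, SE 0.15, adjusted p = 0.00016). The 2 that fell were FBtr0070570, at -0.57 (SE 0.14, adjusted p = 0.011), and FBtr0075760, at -0.27 (SE 0.088, adjusted p = 0.044). FBtr0070570 lost its call without BEAF+CTCF replicate 1, BEAF+CTCF replicate 2 or CTCF replicate 1, and FBtr0075760 lost its call without any 1 of the 4 arrays.

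Adding CP190 knockdown also raised more of the 65 than it lowered. Over all transcripts rises outnumbered falls too, and on SuHw the shares of the 65 lay near those of all. In CTCF+CP190 against CTCF, 14 rose (21.5%) and 4 fell (6.15%), beside 12.6% and 11.8% of all transcripts, with a median difference of 0.13. In SuHw+CP190 against SuHw, 14 rose (21.5%) and 7 fell (10.8%), beside 14.6% and 13.7% of all transcripts, with a median difference of 0.073. With only SuHw+CP190 and SuHw arrays in the fit, 7 rose and 2 fell, beside 6.38% and 4.63% of all transcripts. Of the 14 raised on CTCF, 9 were also among the 14 raised on SuHw (64.3% of each), and over all transcripts 64.9% of those raised on CTCF and 55.8% of those raised on SuHw were raised on both. Of the 4 that fell on CTCF and the 7 on SuHw, 3 transcripts (FBtr0089859, FBtr0075760 and FBtr0070589, the last of which was named after its values were seen) fell in both, beside 62.7% and 54.1% of all transcripts that fell. None of the 12 called in both had opposite calls, against 1.52% of all transcripts called in both. Fewer of the 65 were called on CTCF without either CTCF replicate, and on SuHw without SuHw+CP190 replicate 1. In each of these fits fewer of all transcripts were called too. The median on CTCF was 0.051 without CTCF+CP190 replicate 2. That on SuHw was 0.025 without SuHw replicate 1 and 0.044 without either SuHw+CP190 replicate.

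FBtr0112738 was the transcript most raised when CP190 was added to SuHw. It had 11.23 and 11.50 in SuHw+CP190 arrays, against 9.93 and 10.07 in SuHw arrays, a 2.58-fold difference (log2 1.36, SE 0.13, adjusted p = 8.3e-06). In CTCF+CP190 arrays it had 11.30 and 11.39, against 10.42 and 10.27 in CTCF arrays (2.00-fold, adjusted p = 0.00015). It also had 11.24 and 11.31 in BEAF+CTCF arrays, where no CP190 knockdown was applied, and 11.25 and 11.37 in BEAF+CP190 arrays. In the singles of the first set it had 10.51 and 10.05 in BEAF and 10.07 and 10.03 in CP190 arrays, and in control 9.21 and 9.40. All 8 double knockdown arrays thus lay above all 8 single knockdown arrays, and no single array overlapped a double.

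FBtr0077951 had 10.36 and 10.49 in SuHw+CP190 arrays, against 9.43 and 9.29 in SuHw arrays, a 2.09-fold difference (log2 1.06, SE 0.11, adjusted p = 1.8e-05). In CTCF+CP190 arrays it had 10.02 and 9.86, against 9.09 and 9.16 in CTCF arrays (log2 0.82, adjusted p = 0.00021). It had 8.86 and 8.82 in CP190 arrays, against 7.80 and 7.68 in control arrays. Its levels were higher in each double knockdown array than in each single one.

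FBtr0089859 moved the other way when CP190 was added. It had 9.16 and 9.19 in CTCF+CP190 arrays, against 10.63 and 10.54 in CTCF arrays, a log2 difference of -1.41 (SE 0.21, adjusted p = 0.00043). In SuHw+CP190 arrays it had 8.87 and 9.28, against 9.88 and 9.76 in SuHw arrays (-0.74, SE 0.21, adjusted p = 0.021). In BEAF+CP190 arrays it had 8.89 and 9.18, against 10.14 and 10.15 in BEAF+CTCF arrays (-1.11, adjusted p = 0.0042). Every array with CP190 depleted, 8.84 and 8.65 in the CP190 single included, lay below every knockdown array without it, of which the lowest was BEAF replicate 2 at 9.55, and above the control arrays at 7.64 and 7.75. The difference on SuHw lost its call without SuHw+CP190 replicate 1, SuHw replicate 1 or SuHw replicate 2. FBtr0077183 was the other large fall on SuHw, with 8.17 and 7.97 in SuHw+CP190 arrays, against 8.45 and 9.03 in SuHw arrays (-0.67, SE 0.16, adjusted p = 0.0064). Its groups did not overlap, and the call was lost without SuHw+CP190 replicate 2 or SuHw replicate 2.

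Between CTCF and SuHw knockdown the 65 were called about as often as all transcripts. In CTCF against SuHw, 4 were higher (6.15%) and 5 lower (7.69%), beside 9.12% and 7.63% of all transcripts, and the median difference was 0.00075. Fewer of the 65 and fewer of all transcripts were called without either CTCF replicate. The median ran from -0.032 without SuHw replicate 1 to 0.064 without SuHw replicate 2. FBtr0082648 stood out with 7.25 and 7.43 in CTCF arrays, against 9.12 and 8.97 in SuHw arrays, a log2 difference of -1.70 (SE 0.15, adjusted p = 3.1e-06). FBtr0071004 had 6.83 and 6.93 in CTCF arrays, against 7.59 and 7.70 in SuHw arrays (-0.76, SE 0.13, adjusted p = 0.0012). FBtr0081851 was higher in CTCF arrays by 0.53 (SE 0.10, adjusted p = 0.0031), and FBtr0089859 by 0.76 (adjusted p = 0.027, lost without any 1 of the 4 arrays).

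Adding CP190 to CTCF and adding it to SuHw were also compared directly, as the difference between both additions. It was called for 2 of the 65, both higher (3.08%), beside 0.787% of all transcripts called higher and 1.14% lower. FBtr0082648 rose by 1.12 when CP190 was added to CTCF (8.38 and 8.55 in CTCF+CP190 arrays), while it had 9.07 and 9.08 in SuHw+CP190 arrays, against 9.12 and 8.97 in SuHw arrays. The difference between the additions was 1.09 (SE 0.21, adjusted p = 0.014). FBtr0070835 had 7.22 and 7.42 in CTCF+CP190 arrays, against 6.66 and 6.70 in CTCF arrays, and 7.31 and 7.27 in SuHw+CP190 arrays, against 7.14 and 7.38 in SuHw arrays. The difference between the additions was 0.61 (SE 0.12, adjusted p = 0.02). Both calls depended on single arrays, as FBtr0082648 was not called without CTCF+CP190 replicate 2 or CTCF replicate 1, and FBtr0070835 kept its call without SuHw replicate 1 or CTCF+CP190 replicate 1 but not without any of the other 6 arrays. Fewer of the 65 and fewer of all transcripts were called without CTCF+CP190 replicate 2, either CTCF replicate or SuHw+CP190 replicate 1.

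**Figure D4:**
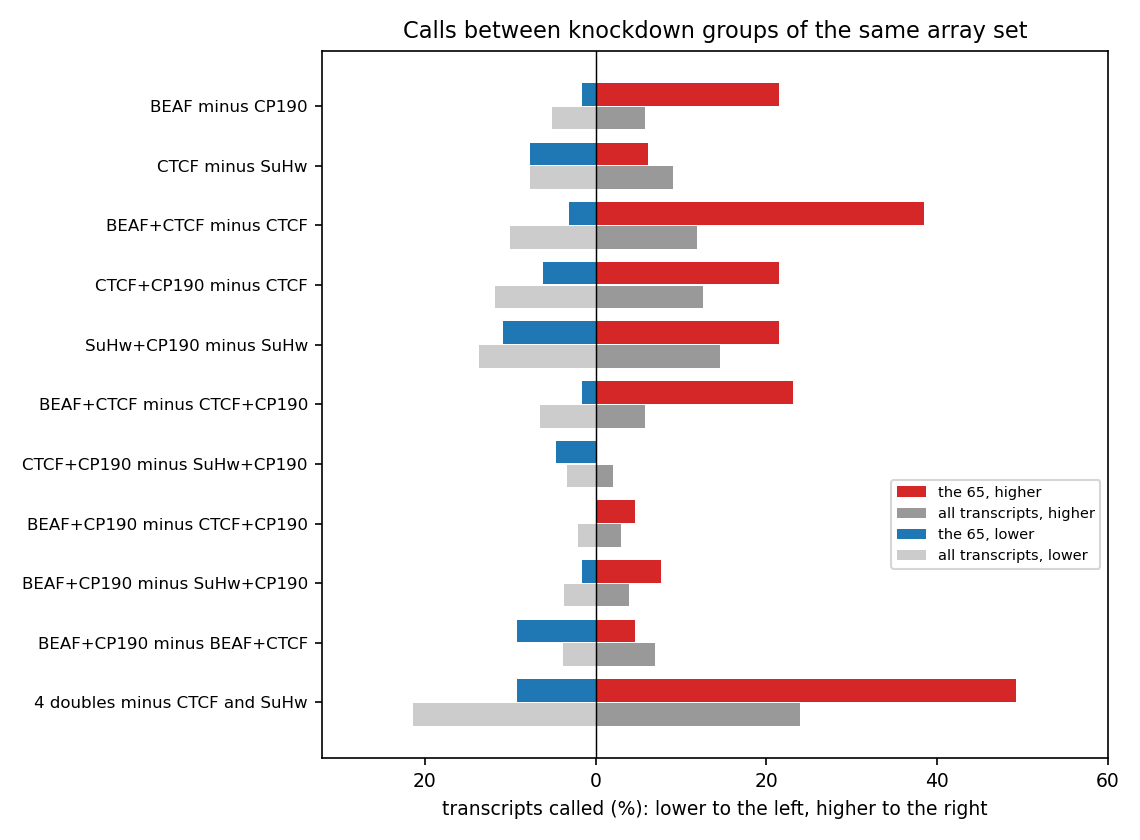
Bars to the right give the share of transcripts called higher and bars to the left the share called lower (limma, adjusted p under 0.05) in 11 comparisons between knockdown groups of the same array set; coloured bars are the 65 transcripts and grey bars all 16637. The longest pairwise bar is BEAF+CTCF minus CTCF, where 38.5% of the 65 and 11.9% of all transcripts were higher.

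BEAF against CP190 is the comparison of knockdowns within the first set. There 14 of the 65 were higher in BEAF arrays (21.5%) and 1 lower (1.54%), beside 5.73% and 5.09% of all transcripts, with a median difference of 0.14. This balance rested on BEAF replicate 1. Without it 5 were higher and 3 lower, beside 2.49% and 2.39% of all transcripts, and the median was 0.0064. Without BEAF replicate 2, 24 were higher and 1 lower, beside 4.58% and 5.45% of all, with a median of 0.26. Without CP190 replicate 2, 7 were higher and 1 lower, beside 3.96% and 4.20% of all. With only BEAF and CP190 arrays in the fit, 2 were higher and 1 lower, beside 1.79% and 1.65% of all. FBtr0089859 had 10.43 and 9.55 in BEAF arrays, against 8.84 and 8.65 in CP190 arrays (log2 1.24, SE 0.21, adjusted p = 0.0024), and lost its call in that fit.

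FBtr0087442 differed wherever BEAF was depleted, and kept its calls without either BEAF array. It had 11.58 and 11.84 in BEAF arrays, against 9.80 and 9.63 in CP190 arrays, a 3.97-fold difference (log2 1.99, SE 0.10, adjusted p = 1.7e-07). In BEAF+CTCF arrays it had 11.85 and 11.75, against 9.93 and 9.85 in CTCF arrays (3.76-fold, adjusted p = 2.4e-07). In BEAF+CP190 arrays it had 11.72 and 11.81, against 9.89 and 9.97 in CTCF+CP190 arrays and 9.92 and 9.95 in SuHw+CP190 arrays. SuHw arrays had 9.82 and 10.08, and control arrays 8.98 and 9.12. The 6 arrays with BEAF depleted thus lay together between 11.58 and 11.85, the 10 other knockdown arrays between 9.63 and 10.08, and control below both, with no overlap. The spread of its 8 group means, 2.08, was the widest among the 65.

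The transcript with the preceding identifier, FBtr0087441, is not among the 65 and was looked at after its values were seen. It had 8.49 and 8.58 in BEAF arrays, against 11.14 and 11.15 in CP190 arrays, a log2 difference of -2.61 (SE 0.057, adjusted p = 3.1e-11). In BEAF+CTCF arrays it had 8.87 and 8.84, against 11.39 and 11.34 in CTCF arrays (-2.51, adjusted p = 5.1e-11). Control arrays had 10.92 and 10.91. The pair of identifiers thus moved in opposite directions wherever BEAF was depleted. Whether they belong to 1 gene is not stated. Whether either is a transcript of the gene targeted by the double-stranded RNA could not be checked.

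FBtr0070835 was the transcript lower in BEAF than in CP190 arrays, at 6.35 and 6.33 in BEAF arrays, against 6.97 and 6.89 in CP190 arrays (-0.59, SE 0.085, adjusted p = 0.00072). It was also lower in BEAF+CTCF arrays, at 6.61 and 6.66, than in CTCF+CP190 arrays, at 7.22 and 7.42 (-0.69, SE 0.085, adjusted p = 0.00012). BEAF+CP190 arrays, at 7.46 and 7.61, were the highest, 0.90 above BEAF+CTCF (SE 0.085, adjusted p = 1.5e-05). Control arrays had 5.89 and 5.86. Among the knockdown arrays those of CP190, of SuHw and of every double with CP190 lay above those of BEAF, CTCF and BEAF+CTCF.

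On a CTCF knockdown, BEAF depletion gave higher levels than CP190 depletion in 15 of the 65 (23.1%) and lower in 1 (1.54%), beside 5.77% and 6.48% of all transcripts (BEAF+CTCF against CTCF+CP190, median difference 0.096). Fewer of the 65 and fewer of all transcripts were called without BEAF+CTCF replicate 1, BEAF+CTCF replicate 2 or CTCF+CP190 replicate 1. The median was 0.058 without CTCF+CP190 replicate 1 and 0.19 without CTCF+CP190 replicate 2. The largest differences were those of FBtr0087442, at 1.87 (SE 0.10, adjusted p = 9.3e-08), and FBtr0089859, at 0.97 (SE 0.21, adjusted p = 0.0091). The second was lost without any 1 of the same 3 arrays.

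On a CP190 knockdown few of the 65 were called between the second proteins. In BEAF+CP190 against CTCF+CP190, 3 were higher (4.62%) and none lower, beside 2.98% and 2.11% of all transcripts; the median difference was 0.10, against 0.0081 over all transcripts, and 51 of 65 lay above 0. The 3 were FBtr0087442, FBtr0075697 and FBtr0071780, the last of these named after its values were seen. In BEAF+CP190 against SuHw+CP190, 5 were higher (7.69%) and 1 lower (1.54%), beside 3.97% and 3.72%, with a median of 0.13, against 0.022 over all transcripts, and 52 of 65 above 0. The share of all transcripts above 0 was not counted in either comparison, so nothing is read from the counts above 0. In CTCF+CP190 against SuHw+CP190 none was higher and 3 were lower (4.62%), beside 2.02% and 3.34%, with a median of 0.029. These 3 were FBtr0082648 (-0.61), FBtr0077951 (-0.48) and FBtr0075760 (-0.38, named after its values were seen). Most of these small counts fell with 1 array left out, and the shares of all transcripts called fell each time. In BEAF+CP190 against CTCF+CP190 the median was 0.058 without CTCF+CP190 replicate 1. When low values were filtered, 7 were called there, all higher, beside 4.26% of the transcripts then tested. In BEAF+CP190 against SuHw+CP190 the median was 0.081 without BEAF+CP190 replicate 2. That of CTCF+CP190 against SuHw+CP190 ran from -0.049 to 0.062 with 1 of its arrays left out.

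FBtr0075697, which had the largest mean rise of the 65, was 0.84 higher in BEAF+CP190 than in CTCF+CP190 arrays (SE 0.15, adjusted p = 0.005) and 0.76 higher than in SuHw+CP190 arrays (SE 0.15, adjusted p = 0.007). It had 8.86 and 8.88 in BEAF+CP190 arrays, against 7.96 and 8.10 in CTCF+CP190 and 7.94 and 8.29 in SuHw+CP190 arrays. Its other levels were 8.11 and 7.68 in BEAF, 7.28 and 7.22 in CP190, 7.30 and 7.53 in SuHw, and 5.57 and 5.92 in control arrays. The first call was lost without CTCF+CP190 replicate 1 and the second without BEAF+CP190 replicate 2 or SuHw+CP190 replicate 1.

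On a BEAF knockdown, CP190 against CTCF depletion gave 3 higher (4.62%) and 6 lower (9.23%), beside 6.99% and 3.79% of all transcripts (BEAF+CP190 against BEAF+CTCF, median difference 0.0068). FBtr0089859, described above, fell most, and FBtr0079843 next. FBtr0079843 had 10.06 and 10.13 in BEAF+CP190 arrays, against 10.99 and 10.98 in BEAF+CTCF arrays (-0.88, SE 0.12, adjusted p = 0.00035). Its BEAF+CP190 arrays were the lowest of all its knockdown arrays and still lay above the control arrays, at 9.65 and 9.62. FBtr0082648 was 0.49 higher (adjusted p = 0.048, lost without any 1 of the 4 arrays). Fewer of the 65 and fewer of all transcripts were called without any 1 of the 4 arrays. The median ran from -0.060 without BEAF+CP190 replicate 2 to 0.045 without BEAF+CP190 replicate 1.

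The 4 doubles together, against CTCF and SuHw alone, had 32 of the 65 higher (49.2%) and 6 lower (9.23%), beside 24.0% and 21.4% of all transcripts, with a median difference of 0.15. FBtr0112738 led with 1.15 (SE 0.080, adjusted p = 1.9e-07) and FBtr0075697 followed with 1.00 (SE 0.092, adjusted p = 2e-06). FBtr0082542 had 10.87 and 10.87 in BEAF+CP190, 10.85 and 10.87 in BEAF+CTCF, 10.73 and 10.86 in CTCF+CP190 and 11.08 and 10.90 in SuHw+CP190 arrays. Against these stood 10.36 and 10.37 in CTCF and 10.12 and 10.25 in SuHw arrays, a mean difference of 0.60 (SE 0.058, adjusted p = 3.2e-06). In the first set it had 9.95 and 9.76 in BEAF, 10.10 and 9.83 in CP190 and 8.62 and 8.52 in control arrays, so its doubles, its second-set singles, its first-set singles and control formed 4 groups that did not overlap. FBtr0089859, at -0.85 (SE 0.13, adjusted p = 0.00018), and FBtr0075760, at -0.51 (SE 0.054, adjusted p = 6.5e-06), were lower in the doubles.

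FBtr0075760 was highest where CTCF or SuHw was depleted alone. It had 11.16 and 11.14 in BEAF+CP190, 11.25 and 11.20 in BEAF+CTCF, 10.79 and 11.02 in CTCF+CP190 and 11.31 and 11.26 in SuHw+CP190 arrays, against 11.45 and 11.54 in CTCF and 11.68 and 11.95 in SuHw arrays. BEAF arrays had 10.79 and 10.76, CP190 arrays 10.64 and 10.67, and control arrays 10.11 and 10.14. Both singles of the second set lay above all 8 double arrays without overlap.

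**Figure D5:**
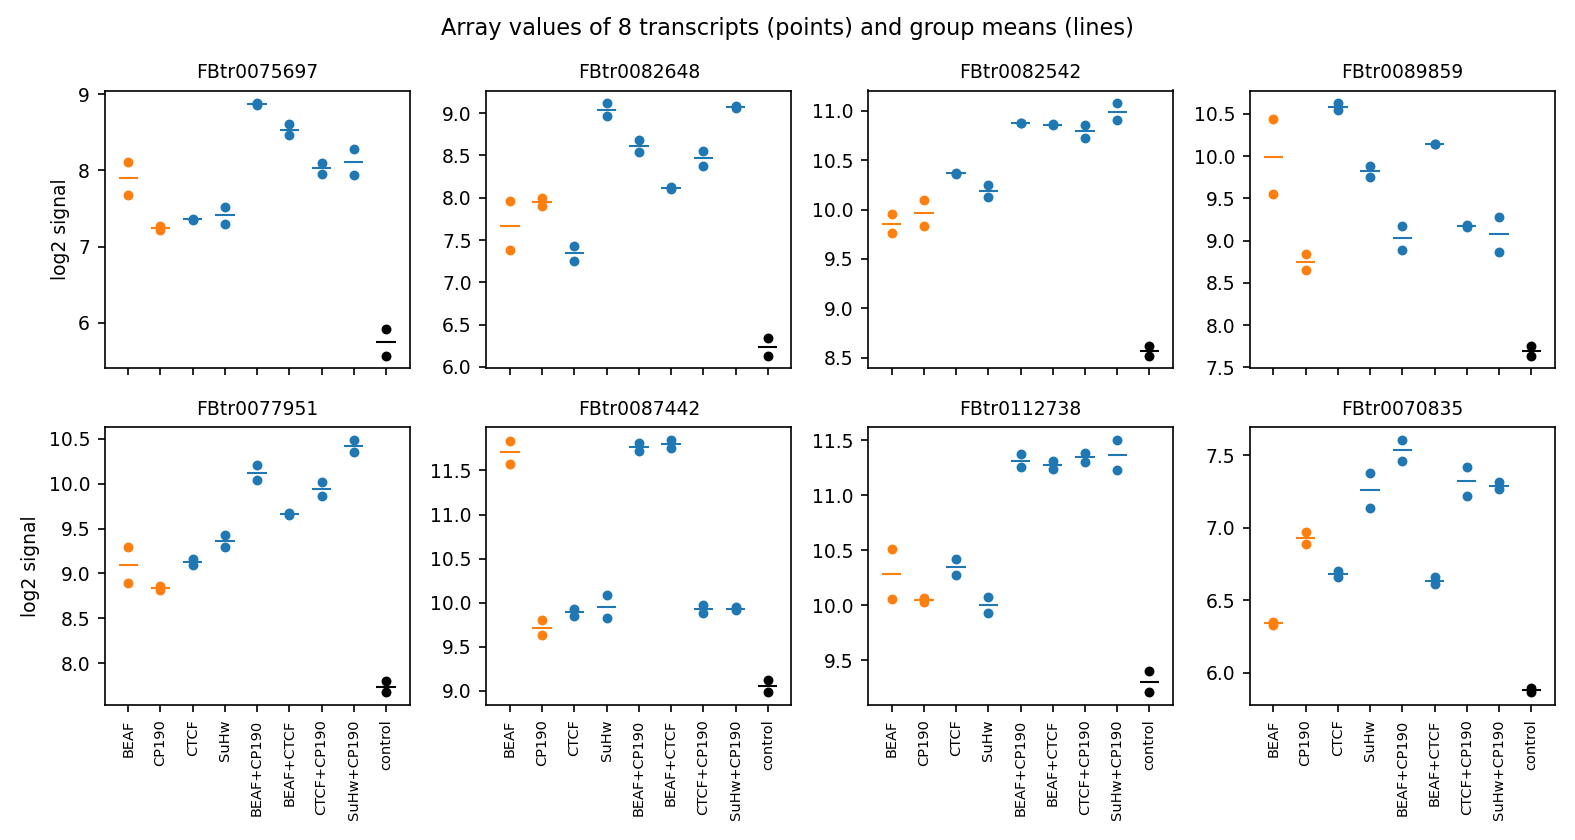
Each panel plots the log2 signal of 1 transcript in the 18 arrays (points) with group means (lines), orange for BEAF and CP190, blue for the second set and black for control; panels have their own vertical scales, which do not start at 0. FBtr0087442 separates the 6 arrays with BEAF depleted from the rest, FBtr0112738 the 8 double knockdown arrays from the single ones, and FBtr0089859 the arrays with CP190 depleted from the other knockdown arrays.

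At least 1 of the 12 comparisons was called in 48 of the 65 (73.8%), against 60.1% of all transcripts, and none in 17. In 5 or more, 13 of the 65 were called (20%), against 13.1% of all, and FBtr0075697 was called in 8. These shares were not tested against each other. The range of the 8 knockdown means had a median of 0.77 over the 65, and 0.49 over all transcripts, and it was under 0.5 in 17 and at least 1 in 24. FBtr0079577 had the narrowest range, 0.20, with a mean rise of 0.88. Its knockdown arrays ran from 7.98 to 8.36 with a median of 8.18, against 7.31 and 7.30 in control. FBtr0070670 was similar, with a range of 0.21 and knockdown arrays from 10.65 to 10.94 (median 10.77), against 10.14 and 10.02 in control. Among the 3 smallest mean rises, those of FBtr0088273 (0.69), FBtr0084257 (0.67) and FBtr0100029 (0.66), the first was 1.62-fold.

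Identifiers of 14 of the 65 are numbered close together, with steps of at most 2, in 5 runs. The runs that start at FBtr0080636, FBtr0083772 and FBtr0100029 each enclose 1 measured transcript that is not among the 65. How often such runs occur over all transcripts was not counted. The files do not say whether a run belongs to 1 gene or shares probes, so the 65 may not be 65 independent measurements. FBtr0079577 and FBtr0079578 differed in their rise by at most 0.11 in any knockdown, FBtr0080636 and FBtr0080638 by at most 0.14, and FBtr0083772, FBtr0083773 and FBtr0083775 by at most 0.23. FBtr0100029 and FBtr0100031 differed by up to 0.87.

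The longest run, FBtr0071779 to FBtr0071783, held 5 transcripts with unlike patterns. FBtr0071779 and FBtr0071780 were highest in BEAF (rises of 1.58 and 1.84) and CP190 arrays (1.28 and 1.45) and lowest in CTCF arrays (0.70 and 0.71). They were among the 3 transcripts with the lowest second-set levels relative to BEAF and CP190, at -0.51 and -0.62, with FBtr0290049 at -0.57. FBtr0290049 had 7.23 and 6.29 in BEAF and 6.14 and 6.22 in CP190 arrays, against 4.98 and 4.92 in control arrays, and its second-set arrays lay below those of CP190 in all groups but BEAF+CTCF. FBtr0071781, FBtr0071782 and FBtr0071783 had their largest rises in BEAF+CTCF arrays (1.18, 1.55 and 1.56) and their smallest in CP190 arrays (0.66, 0.60 and 0.87). Control levels in the run ranged from 5.97 for FBtr0071782 to 9.56 for FBtr0071779, and levels of different transcripts are not comparable on this scale.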

How the data were processed

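RNA of 18 Kc cell samples was measured on 1-colour NimbleGen arrays, 2 in each of 9 groups taken from the sample titles. The authors deposited 1 table of log2 signals per transcript, for which the submitters' processing notes list RMA and Partek without versions or settings. The array design and genome build are not stated. These values entered the fits unfiltered and without a second normalization. The precision is limited by 2 arrays a group, and the table carries no background measure. Group means over all 18 arrays were fitted by limma 3.58.1 under R 4.3.3 (functions lmFit and eBayes, 9 residual and 3.68 prior degrees of freedom). Two-sided p-values were adjusted (Benjamini-Hochberg) across the 16637 transcripts within each comparison, and differences with an adjusted p under 0.05 were called. They measure the spread between arrays of independent experiments. Differences are in log2, and a fold is 2 raised to that difference. The fit was tested on simulated data with known changes. The 65 transcripts, comparisons and lists were chosen with earlier results of these data known. Named transcripts were the 6 largest and 3 smallest rises, those nearest the limits, the highest and lowest control level, and up to 2 called rises and 2 called falls per comparison. Others, such as those in runs of identifiers or with the largest difference between sets, were chosen after their values were seen. The planned check of named genes and cell markers was not run, because their transcripts carry no name here. Alternatives were other limits of the choice, quantile normalization, a replicate block, a trended prior, a filter on low values, fits of only the groups compared and leaving out each array.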

Additional observations from a re-analysis of the deposited data

Results flagged for a closer look

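The effect of adding CP190 knockdown differed between CTCF and SuHw for 2 of the 65 transcripts, by a test of the difference itself (limma with Benjamini-Hochberg over all transcripts). FBtr0082648 had a difference between the additions of 1.09 (adjusted p = 0.014). It was higher in both CTCF+CP190 arrays than in both CTCF arrays, while its SuHw+CP190 and SuHw arrays overlapped. FBtr0070835 had a difference of 0.61 (adjusted p = 0.02). Its adjusted p was 0.15 when only the groups compared were fitted. The number of such transcripts changed with 1 array left out, and so did the number called over all transcripts. The part of single arrays in these calls was not tested further.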

How the results depend on the processing

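The number of transcripts chosen depended on the limits and on single arrays. It was 169 with a gap of 0.3, 37 with a gap of 0.5, 112 with quantile normalization, 297 with replicate 1 of every group alone and 106 with replicate 2 alone. Without single arrays it ran from 65 to 152, with 80 without control replicate 1, 152 without control replicate 2, 97 without CP190 replicate 2 and 91 without BEAF replicate 2, and all 65 remained in each list that left out 1 array. Quantile normalization kept all 65 and widened their gap by a median of 0.055. The 47 it added had a median gap of 0.33 as deposited. A limit of 0.5 between the sets kept 44, and no limit gave 67.

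With 1 array left out, the transcripts called among the 65 ran from 8 to 25 in BEAF against CP190, 4 to 12 in CTCF against SuHw, 18 to 22 in BEAF+CTCF against CTCF, 10 to 15 in CTCF+CP190 against CTCF and 13 to 15 in SuHw+CP190 against SuHw. They ran from 7 to 14 in BEAF+CTCF against CTCF+CP190, 0 to 1 in CTCF+CP190 against SuHw+CP190, 1 to 3 in BEAF+CP190 against CTCF+CP190, 1 to 4 in BEAF+CP190 against SuHw+CP190 and 4 to 6 in BEAF+CP190 against BEAF+CTCF. They ran from 0 to 3 for the difference between CP190 additions and 32 to 40 for the doubles against CTCF and SuHw. With only the groups compared in the fit, which leaves fewer arrays to estimate the spread, the counts were 3 in BEAF against CP190, 9 in SuHw+CP190 against SuHw, 1 in CTCF+CP190 against SuHw+CP190 and 1 for the difference between CP190 additions. With a filter on low values BEAF+CP190 against CTCF+CP190 had 7. With a trended prior CTCF against SuHw had 12, 7 higher and 5 lower, which turned the balance of 4 and 5; the cause was not tested.

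Replicate numbers are shared by the groups, and the labels call replicates independent experiments. Replicate deviations correlated at -0.11 to 0.30 over the 10 pairs of groups compared, 4 of them over 0.1, and at -0.20 to 0.45 over all 36 pairs, with the highest between SuHw and CTCF+CP190. Since not every pair was over 0.1, the numbers are not taken as pairs. With the replicate number as a block for the pairing the counts were within 1.5 times throughout. In BEAF against CP190, 13 were then higher and 1 lower, beside 5.85% and 5.1% of all transcripts. In BEAF+CTCF against CTCF, 26 were higher and 2 lower, beside 11.8% and 10.1%. In SuHw+CP190 against SuHw, 13 were higher and 6 lower, beside 14.6% and 13.7%. Of 39 named differences in these comparisons, 24 kept their call in all alternatives run, 15 lost it in at least 1 and none changed sign.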
